A study of Homo sapiens with 2 samples.

Results

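The 3 genes NUDT21, CPSF6 and CPSF7 encode the subunits of cleavage factor I, and what is described here is where NUDT21 eCLIP peaks fell on the RNAs of these same genes. A peak was counted as theirs when its midpoint lay in the body of 1 of the 3 genes as annotated in GENCODE 44. By this rule 35 of the 20499 peaks in the deposited list were found, or 0.171% of it, with 4 in NUDT21, 25 in CPSF6 and 6 in CPSF7. No further peak touched a gene body without its midpoint lying inside.

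The study held 2 libraries of J-Gamma1, a subline of the Jurkat leukemia cell line that is known for its lack of phospholipase C gamma 1 and is labelled as T-ALL (T-cell acute lymphoblastic leukemia) cells. One library came from immunoprecipitation with a NUDT21 antibody, and the other was an input library made without that selection. Cells of both were kept on ice, exposed 2 times to 254 nm UV-C at 400 mJ, lysed for 15 min and digested with 40 U of RNase I at 37 °C for 5 min. Peaks of the antibody library alone were analysed, from 1 replicate of 1 cell line, so no comparison of conditions and no test was possible, and every interval below covers counting error only.

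Cleavage factor I binds nascent RNA upstream of the poly(A) site and guides where the 3' end is cut. NUDT21, also called CFIm25, is the subunit that reads the tetranucleotide UGUA as a dimer, whereas CPSF6 (CFIm68) and CPSF7 (CFIm59) are alternative larger partners with an RNA recognition motif and an arginine and serine rich tail. Many genes have several poly(A) sites, and the level of cleavage factor I is known to shift the choice between proximal and distal ones. In eCLIP, UV light links the protein to RNA that it touches, and a peak marks a stretch where the recovered reads pile up over the local background.

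To show what lay under the peaks, the UGUA sites that the results below turn on are printed from the hg38 reference, 5' to 3' on the strand of the gene, with 12 bases on each side. UGUA in RNA is TGTA in these DNA letters, and the site at the centre of each stretch stands in capitals, while a further site beside it, where there is one, is left in lower case. The first 3 sites are those in the 3'UTR peaks of NUDT21, and the fourth is the site at the edge of its first exon.
NUDT21 3'UTR, chr16:56431915-56431942, minus strand: tctaaaattggaTGTAttaggttttgaa
NUDT21 3'UTR, chr16:56431578-56431605, minus strand: ctataggcttaaTGTAaaaaggaatctt
NUDT21 3'UTR, chr16:56431556-56431583, minus strand: aatcttgccagaTGTAgctacttaagga
NUDT21 exon 1 edge, chr16:56451072-56451099, minus strand: gcaccatcaaccTGTAagtgcggcgcgg

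The following sites belong to CPSF6 and CPSF7. The first 4 lie in peaks of the last intron of CPSF6, the fifth and sixth in the CPSF6 peak with most sites, and the last in the only 3'UTR peak of CPSF7 that held the motif. The first 4 are a selection from 10 sites in the peaks of the last intron of CPSF6. All 4 are followed by U, whereas several of the sites not printed are followed by G or C, and some lie farther from the midpoint.
CPSF6 last intron, chr12:69262583-69262610, plus strand: gttaaatgtgtgTGTAttcttaacagta
CPSF6 last intron, chr12:69263680-69263707, plus strand: ggttttatcaagTGTAtgtaattctgtg
CPSF6 last intron, chr12:69267624-69267651, plus strand: ttggaaatgggtTGTAttgccttcaaat
CPSF6 last intron, chr12:69268326-69268353, plus strand: agaagtctggatTGTAtttttttttctt
CPSF6 last exon, chr12:69270228-69270255, plus strand: tgctgaatggtaTGTAaacttgtaaaaa
CPSF6 last exon, chr12:69270278-69270305, plus strand: atctagtcaatgTGTAaggggtcaaaaa
CPSF7 last exon, chr11:61402967-61402994, minus strand: tgtcttttaaaaTGTAgagaaaaggtga

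For the list as a whole, the Score of each peak was a whole multiple of 1 unit, called a step here and taken as 1 antibody read, an inference from the values. Heights ran from 1 to 45 steps with a median of 3, and fold enrichment, the pileup plus 1 over the local background plus 1, had a median of 1.61. The false discovery rate (FDR) was under 0.05 for 19 peaks, 0.0927% of the list. Of 13 T-cell marker genes, 5 had a peak (CD3E, CD247, ZAP70, PTPRC and BCL11B), against 1 of 5 B-cell markers, 0 of 5 myeloid and 0 of 3 erythroid markers. With 33.4% of protein-coding genes holding a peak, these counts do not tell the cell types apart. The list held no read totals and no strand, so depth was unknown and a peak was given to a gene by position alone. How much RNA of each gene the cells held was not measured here, and its part in the height or number of peaks was not tested.

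All 3 cleavage factor I genes carried peaks, as did 33.4% of 19396 protein-coding genes, and all 3 carried peaks in a 3'UTR, as did 14.1% of the 19367 genes with an annotated 3'UTR. By raw counts CPSF6 stood near the top of the list, since 20 of 6476 genes with a peak had more peaks and 18 of 2732 genes with a 3'UTR peak had more of those. Allowing for length, more genes exceeded CPSF6: 97 of 4389 by exonic peaks per kb of exon, and 210 of 2732 by 3'UTR peaks per kb of 3'UTR. CPSF7 had 598 genes above it by peaks and NUDT21 had 1134. Per kb of exon the order was CPSF6, at 1.61 peaks with a midpoint in an exon (95% Poisson interval 0.860 to 2.76), then CPSF7 at 0.828 (0.269 to 1.93) and NUDT21 at 0.675 (0.184 to 1.73). These intervals overlapped, so neither neighbour in that order stood apart by more than counting error. The median gene with an exonic peak had 0.272 per kb.

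The member peaks were high for this list, although none had an FDR under 0.05. Of the 35 peaks, 32 had 5 or more steps (91.4%, exact Clopper-Pearson 95% interval 76.9 to 98.2), against 42.3% of all peaks, and the median member peak had 8 steps, a fold enrichment of 2.46 and a length of 99 nt. A height of 5 or more steps was reached by 4 of 4 peaks in NUDT21 (39.8 to 100), 25 of 25 in CPSF6 (86.3 to 100) and 3 of 6 in CPSF7 (11.8 to 88.2). The intervals of NUDT21 and CPSF7 include the 42.3% of all peaks, so only CPSF6 stood apart by itself. A large share of high peaks was common in genes as rich in peaks as CPSF6: among 55 genes with 20 or more peaks, the median share of peaks with 5 or more steps was 90.5%, and in 11 genes all peaks reached that height. The FDR was 1 for all 35 peaks, and the lowest deposited p-value was 7.85e-06, for a peak in CPSF6.

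**Figure D1:**
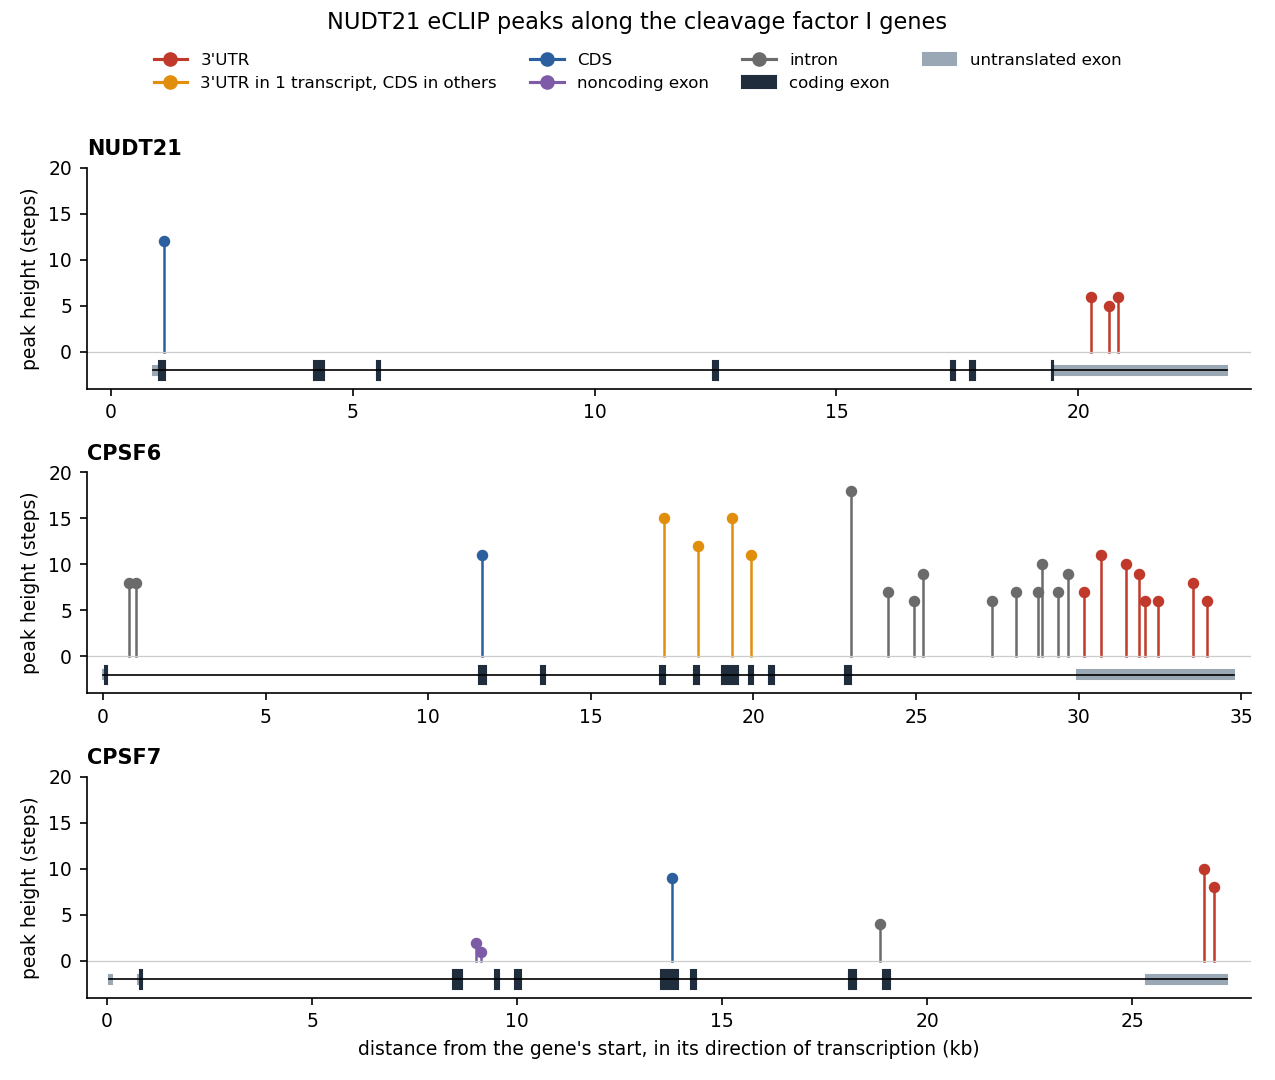
Peak height in steps (vertical axis) against distance from the start of each gene in kb (horizontal axis), with coding and untranslated exons of the MANE Select transcript drawn under each panel and peaks coloured by region. NUDT21 has 3 peaks in its 3'UTR, CPSF6 has a series of 18 peaks from the end of its coding sequence to the end of the gene, and CPSF7 has 2 peaks in its last exon.

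By midpoint, 17 of the 35 peaks lay in a 3'UTR (48.6%, 31.4 to 66.0), 13 in an intron, 3 in coding sequence (CDS), 2 in noncoding exons and 0 in a 5'UTR. This count placed any annotated 3'UTR ahead of CDS, and 4 of the 17 peaks, all of them in CPSF6, were coding in other transcripts. Over all protein-coding genes 5508 3'UTR peaks were counted, in a list of 20499 peaks. Whether this split sets the members apart from the list was not tested.

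NUDT21 (ENSG00000167005.14, chr16:56429133-56452199, minus strand), which encodes the RNA-reading subunit pulled down here, had 3 of its 4 peaks in its own 3'UTR. That 3'UTR of 3582 nt lies whole in the seventh and last exon. The first peak, at chr16:56431915-56431968, had 6 steps and a fold enrichment of 1.77, with 1 UGUA. The second, at chr16:56431521-56431593, had 5 steps and 1.79, with 2 UGUA. The third, at chr16:56431333-56431438, had 6 steps and 1.77, and held none.

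These 3 peaks formed a group in the first part of the 3'UTR, from 774 to 1330 nt after the last coding base and from 2252 to 2808 nt before the end of the gene. NUDT21 has 1 annotated transcript end with a 3'UTR, and no peak lay near it. UGUA was found at 12.9 sites per kb within the 3 peaks and 7.76 per kb in the rest of the 3'UTR, a ratio of 1.66 that rests on 3 sites. The height of the 3 peaks stayed within counting error of the list's median of 3 steps, as the interval for 6 steps ran from 2.20 to 13.1.

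The highest peak of NUDT21 lay at the other end of the gene, in the CDS of exon 1 (chr16:56451050-56451160). It had 12 steps (6.20 to 20.96) and a fold enrichment of 2.90. Of its 111 nt, 37 reached past the exon into the first intron, and its single UGUA lay across that edge, with 1 base in the exon and the others at the start of the intron, as the fourth sequence above shows. Introns of NUDT21 held no midpoint of a peak. All 4 peaks also lay in the body of the readthrough gene ENSG00000288725 on the same strand, and to which of the 2 genes the reads belonged cannot be told apart by position.

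CPSF6 (ENSG00000111605.18, chr12:69239569-69274358, plus strand) encodes the larger partner CFIm68 and held most of the member peaks. They fell in 4 parts of the gene. The first intron had 2, the coding exons 5, the last intron 10 and the last exon 8, while all other introns had none.

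The 2 peaks of the first intron (chr12:69240332-69240379 and chr12:69240551-69240598) were alike, each with 8 steps, a fold enrichment of 2.57 and 48 nt, and neither held UGUA. They lay 786 and 1005 nt after the start of the gene. The peak of exon 2 in the CDS (chr12:69251171-69251275) had 11 steps and a fold enrichment of 2.72, with no UGUA.

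The 4 peaks in exons 4 to 7 were counted as 3'UTR because of CPSF6-208, a transcript annotated for nonsense-mediated decay, and were CDS in the MANE Select transcript. The peak of exon 4 (chr12:69256779-69256847) had 15 steps and a fold enrichment of 2.21. That of exon 5 (chr12:69257769-69257944) had 12 steps and 3.26, and that of exon 7 (chr12:69259446-69259554) had 11 steps and 3.12. The peak of exon 6 (chr12:69258710-69259125) was the longest, at 416 nt, and had 15 steps and 3.94, the highest fold enrichment and lowest p-value of the members.

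All 4 of these peaks reached past an exon edge, by 5, 39, 31 and 11 nt in the order of the exons. The single UGUA sites of the exon 6 and exon 7 peaks lay in these intronic ends, with no base in the exon. Reaching past an edge was common in the list: among peaks that touched an exon of the transcript used, 36% did so, against 5 of 14 in CPSF6, 1 of 4 in NUDT21 and 1 of 4 in CPSF7.

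The stop codon of CPSF6 lies in exon 9. Only 6 nt, stop codon included, come between the last coding base and the last intron (chr12:69262563-69269511, 6949 nt), which is thus an intron within the 3'UTR. This intron held 10 peaks, or 1.44 per kb (0.690 to 2.65). The earlier introns of CPSF6, 21257 nt in all, held 0.0941 per kb (0.0114 to 0.340), an interval that does not overlap with the former. The last exon held 1.65 per kb (0.713 to 3.25), so in density of peaks the last intron was like the exon after it and not like the introns before it. This division of the gene was chosen after the peaks had been seen.

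The highest of these peaks, and of all members by height, was the first (chr12:69262552-69262602), with 18 steps (10.7 to 28.4) and a fold enrichment of 2.55. Its first 11 nt lay in exon 9 and the remaining 40 nt in the intron, and its UGUA, the first CPSF6 sequence above, lay in the intron. The local background, which was not measured directly but solved from the Score and fold enrichment, was 1 in the unit of the Score there, against 0.0672 to 0.192 under the other peaks of this intron. The other 9 peaks, spread from 1142 to 6692 nt after the last coding base, had 7, 6, 9, 6, 7, 7, 10, 7 and 9 steps in order. Their fold enrichments were between 2.19 and 3.07. By counting error none of the 9 stood apart from its neighbours. No annotated exon of the gene covered any of these midpoints.

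The 8 peaks of the last exon (chr12:69269512-69274358, 4847 nt) are the 3'UTR peaks of CPSF6 in the MANE Select transcript. In order they lay at chr12:69269696-69269760 (7 steps, fold enrichment 2.09), chr12:69270219-69270307 (11 steps, 3.06), chr12:69270938-69271101 (10 steps, 3.06) and chr12:69271353-69271508 (9 steps, 2.84). Then came chr12:69271581-69271628 (6 steps, 2.21), chr12:69271938-69272047 (6 steps, 2.07), chr12:69273066-69273130 (8 steps, 2.66) and chr12:69273458-69273597 (6 steps, 2.23). They were spread over the exon, the first 7172 and the last 10971 nt after the last coding base. These distances run along the genome and so include the last intron of 6949 nt, which the spliced RNA lacks. The shorter transcripts CPSF6-201 and CPSF6-203 end at position 69269939 in this exon, with the poly(A) signal AAUAAA 18 nt before that end. The first peak lay upstream of this end and the other 7 downstream of it, in sequence that the longer CPSF6-202 and CPSF6-208 hold.

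**Figure D2:**
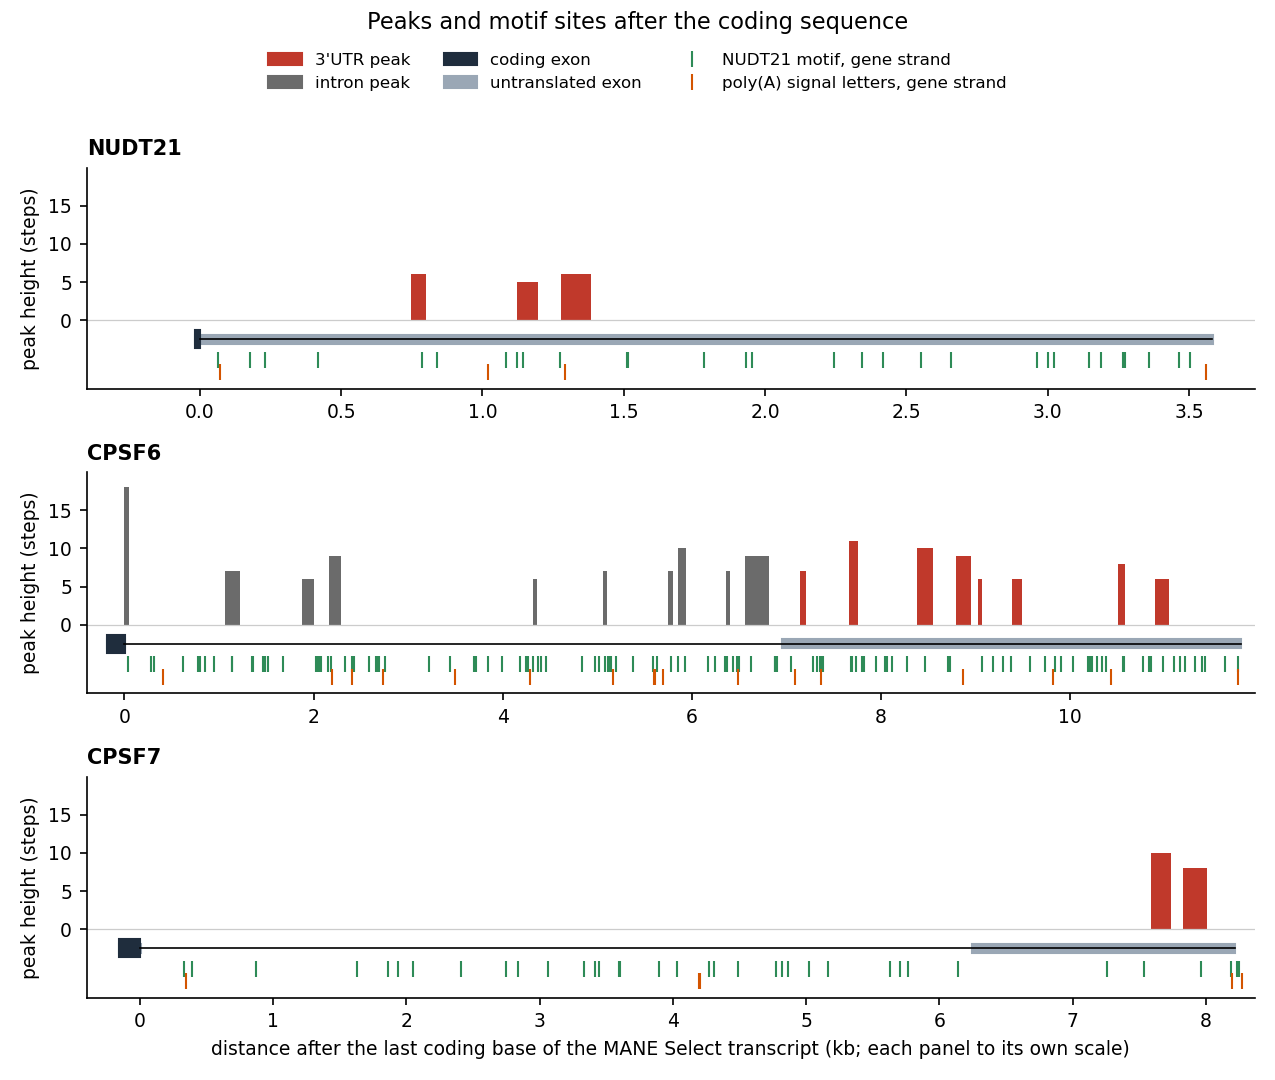
Peaks from the last coding base to the gene end, with height in steps on the vertical axis, distance in kb on the horizontal axis and bars as wide as the peaks. Green ticks mark the NUDT21 motif and orange ticks the main poly(A) signal on the gene strand, and in CPSF6 there are 10 peaks in the last intron and 8 in the last exon, whereas in CPSF7 the last intron has 0.

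CPSF7 (ENSG00000149532.16, chr11:61402641-61430031, minus strand) encodes CFIm59, the paralogue of CPSF6, and has the same arrangement at its end. Its stop codon lies in exon 9, and 8 nt, stop codon included, come between the last coding base and a last intron of 6233 nt. A last exon of 1976 nt follows. In contrast to CPSF6, this intron had 0 peaks, which allows up to 0.592 per kb, under the lower bound of 0.690 per kb for CPSF6. Its last exon had 2 peaks, or 1.01 per kb (0.123 to 3.66), which overlaps with the value of CPSF6.

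The 3'UTR peak nearer to the stop codon (chr11:61403207-61403355) had 10 steps and a fold enrichment of 2.86, with no UGUA on the gene strand. The other (chr11:61402939-61403120) had 8 steps and 2.67, with 1 UGUA. Both lay in 3 transcripts, CPSF7-201, CPSF7-202 and CPSF7-205, at 552 and 300 nt from the nearest annotated end. Of all member peaks in 3'UTRs they lay nearest to the end of their gene, 640 and 388 nt before it.

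The remaining peaks of CPSF7 were lower, except for 1 in CDS. That peak, in exon 6 (chr11:61416202-61416300), had 9 steps and a fold enrichment of 2.46, with 1 UGUA. An intron peak (chr11:61411027-61411341) had 4 steps and 1.82, and 79 of its 315 nt lay in exon 9. In noncoding exons lay chr11:61421004-61421081, with 2 steps and 1.39, and chr11:61420873-61420951, with 1 step and 1.17, the lowest value found in the list. These 3 low peaks held no UGUA on the gene strand.

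**Figure D3:**
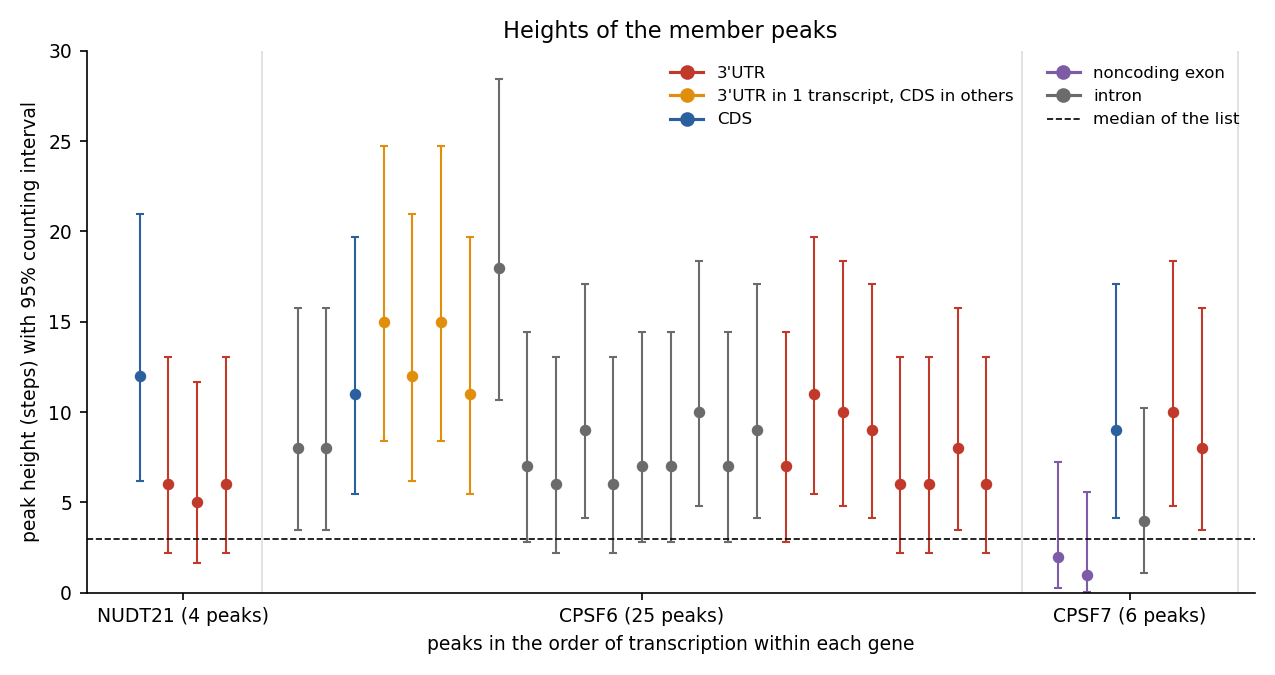
Height in steps of each of the 35 peaks (vertical axis), in the order of transcription within each gene (horizontal axis), with exact Poisson 95% intervals and colours for the regions. The first peak of the last intron of CPSF6, at 18 steps, is the highest, and most intervals overlap with those of their neighbours.

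To see whether many peaks in an intron after the stop codon were common, all such introns of at least 1000 nt in the MANE Select transcripts were counted, a comparison chosen after the CPSF6 peaks had been seen. There were 549 of them in 521 genes, and 16 held a peak, or 2.91%. CPSF6 held 10 of the 28 peaks in these introns. The next highest count was 3, in SLC23A1, followed by 2 in C19orf44. By this count no other such intron had more peaks per kb than that of CPSF6. Over all genes the density was 0.00890 peaks per kb in these introns and 0.00661 in introns before the stop codon. CPSF6 decided that order, as without its intron the former was 0.00574 per kb. Peaks that also lay in an exon of another transcript were left out of these counts. With them included, 31 introns held a peak and none held more than CPSF6, but CDKN1B had 5, HNRNPDL had 4, and 3 introns exceeded CPSF6 in peaks per kb.

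**Figure D4:**
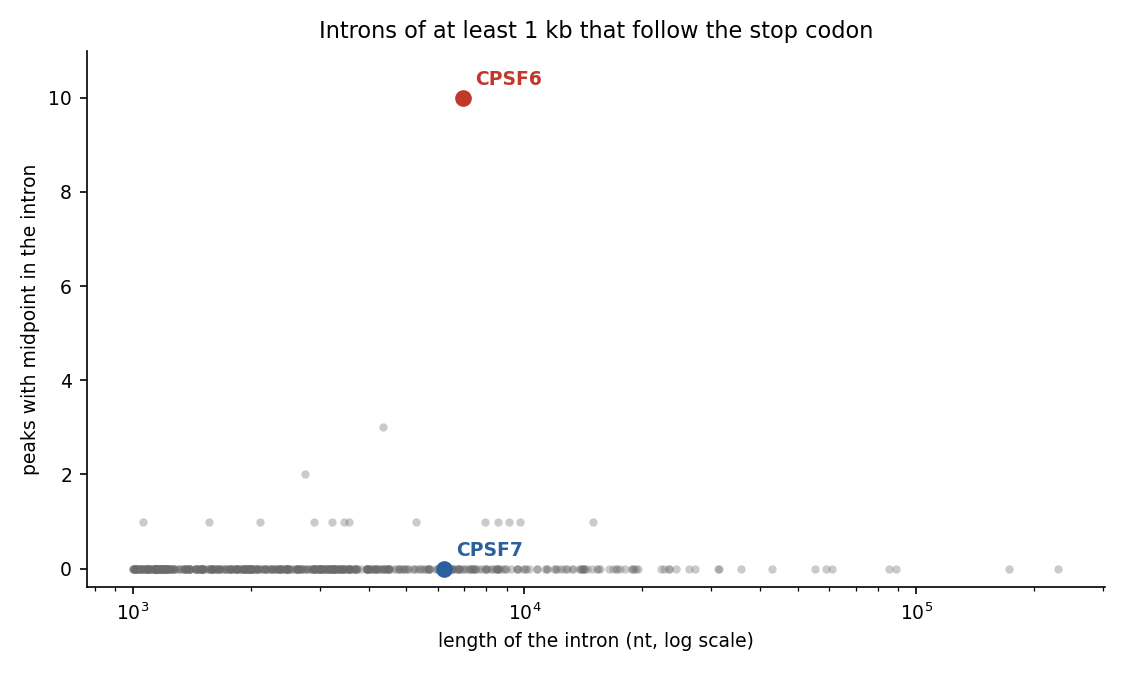
Number of peaks with a midpoint in each of the 549 introns of at least 1000 nt after a stop codon (vertical axis) against intron length in nt (horizontal log axis), 1 point for each intron, without peaks that lie in an exon of another transcript. By this count CPSF6 stands at 10 peaks, CPSF7 at 0, and no other intron is above 3.

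UGUA was searched on the gene strand and, for comparison, on the opposite strand. It was found in 21 of the 35 member peaks (60%, 42.1 to 76.1), with 25 sites in all. Of these sites, 16 were followed by A or U and 16 lay within 25 nt of the midpoint of the peak. No background was counted for either value, and in peaks of 48 nt every site lies that near the midpoint. On the opposite strand 14 peaks held UGUA (40%). Of all windows of the same lengths in the same gene bodies, 48.4% held UGUA on the gene strand, a value inside the interval. For the peaks of the last exons and of the last intron of CPSF6, windows were also taken within the same part of the gene. These windows held it in 55.1% on the gene strand and 41.0% on the opposite strand, so they too held it more often on the gene strand. Among the member peaks in 3'UTRs alone, 10 of 17 held UGUA (58.8%, 32.9 to 81.6). Of all 3'UTR peaks in the list 40.9% held it, and of those of like length 38.0%. Windows of the same lengths in the same gene bodies held it in 52.2%, and all these values were inside the interval. For the lengths of all 35 member peaks, 3'UTR peaks of like length held it in 35.9%, under the lower bound of 42.1. Only 17 of the 35 lie in a 3'UTR, so that comparison is not matched for region. By gene the count was 3 of 4 in NUDT21, 16 of 25 in CPSF6 and 2 of 6 in CPSF7.

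Within CPSF6 the motif was most regular in the last intron, where 9 of 10 peaks held UGUA (90%, 55.5 to 99.7). Windows of the same lengths taken at all positions of that intron held it in 54.5%, just under the lower bound. On the opposite strand the count was 4 of 10, against 42.2% of windows. By density, however, UGUA stood at 10.2 sites per kb in the peaks of this intron and 9.72 outside them, a ratio of 1.05. This intron was also singled out after the peaks had been seen. In the last exon 4 of 8 peaks held UGUA (50%, 15.7 to 84.3), against 65.1% of windows in that exon. The intron as a whole had 9.79 sites per kb and the last exon 9.70, so both were similarly rich in the motif, whereas the exons before the last had 1.15 per kb. The last intron and last exon of CPSF6 were also poor in G and C (29.9% and 31.8%), against 37.3% in its earlier introns.

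Over the 3'UTRs of the 3 genes, as annotated in any transcript, UGUA was 0.866 times as dense in the peaks as in the rest of the same 3'UTRs. For CPSF6 the density was 4.57 sites per kb in peaks and 8.12 outside, a ratio of 0.562, in which the coding exons counted as 3'UTR take part. In the last exon alone the ratio was 0.701, with 6 sites in peaks. For CPSF7 it was 1.05, with 1 site in peaks, and for NUDT21 1.66, with 3. The direction differed between the genes, and each ratio rests on few sites.

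Of the 17 3'UTR peaks, 0 lay within 150 nt of an annotated end of a transcript with a 3'UTR (0%, upper bound 19.5), whereas 17.8% of all 3'UTR peaks did, a share inside the interval of the members. The nearest peak was 155 nt away, in CPSF6, and the median distance was 1665 nt, measured along the genome with any introns included. How much 3'UTR lies this close to an end differs between the genes: the share of positions was 4.22% in NUDT21, 12.5% in CPSF6 and 37.6% in CPSF7.

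The sequences at 3 of these ends are printed to show their poly(A) signals, with none of which a peak overlapped. Capitals mark AAUAAA, which is AATAAA in DNA letters. Its first base is also the last of a UGUA at the CPSF7 end, and no UGUA overlaps with it at the other printed ends. At the end shared by CPSF6-201 and CPSF6-203, which is not printed, 1 base of the signal also lies in a UGUA.
NUDT21-201 end, chr16:56429138-56429167, minus strand: tattgtcatttcAATAAAaaatatttgaaa
CPSF6-202 end, chr12:69274324-69274353, plus strand: tcttgtattgaaAATAAAacaaacttttga
CPSF7-205 end, chr11:61402734-61402763, minus strand: tgaaaattgtgtAATAAActtgatgacgct
In each of these the signal begins 22 nt before the annotated end, and the last 100 nt of each transcript hold 1 UGUA. As a background for the signal, AAUAAA or its variant AUUAAA was found on the gene strand in 7.87% of all windows of 50 nt in the body of NUDT21, 9.56% in CPSF6 and 4.40% in CPSF7. Away from these ends, 9 of the 35 peaks held at least 1 of the signals (25.7%, 12.5 to 43.3), against 17.5% of all windows of the same lengths in the same genes, a value inside the interval. They were 1 in NUDT21, the third 3'UTR peak, which held AAUAAA and no UGUA, 7 in CPSF6 and 1 in CPSF7.

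As a setting for the 3 genes, 20 other genes of the cleavage and polyadenylation machinery were counted by the same rule. Of these, 16 had a peak, against 33.4% of all genes, and 6 had a 3'UTR peak (30%, 11.9 to 54.3), against the 14.1% of all genes given above. None had as many peaks or 3'UTR peaks as CPSF6. CSTF1, a subunit of the cleavage stimulation factor that binds downstream of the cleavage site, had 5 3'UTR peaks. FIP1L1, which binds U-rich RNA and contacts the poly(A) polymerase, had 2, as had PAPOLA, the polymerase itself, and PABPN1, the nuclear poly(A) binding protein. By all peaks RBBP6, a large cofactor of cleavage, had 15 and PCF11, a termination factor, had 11, most of them in CDS. The endonuclease gene CPSF3, and CSTF2T, SYMPK and SSU72, had no peak.

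**Figure D5:**
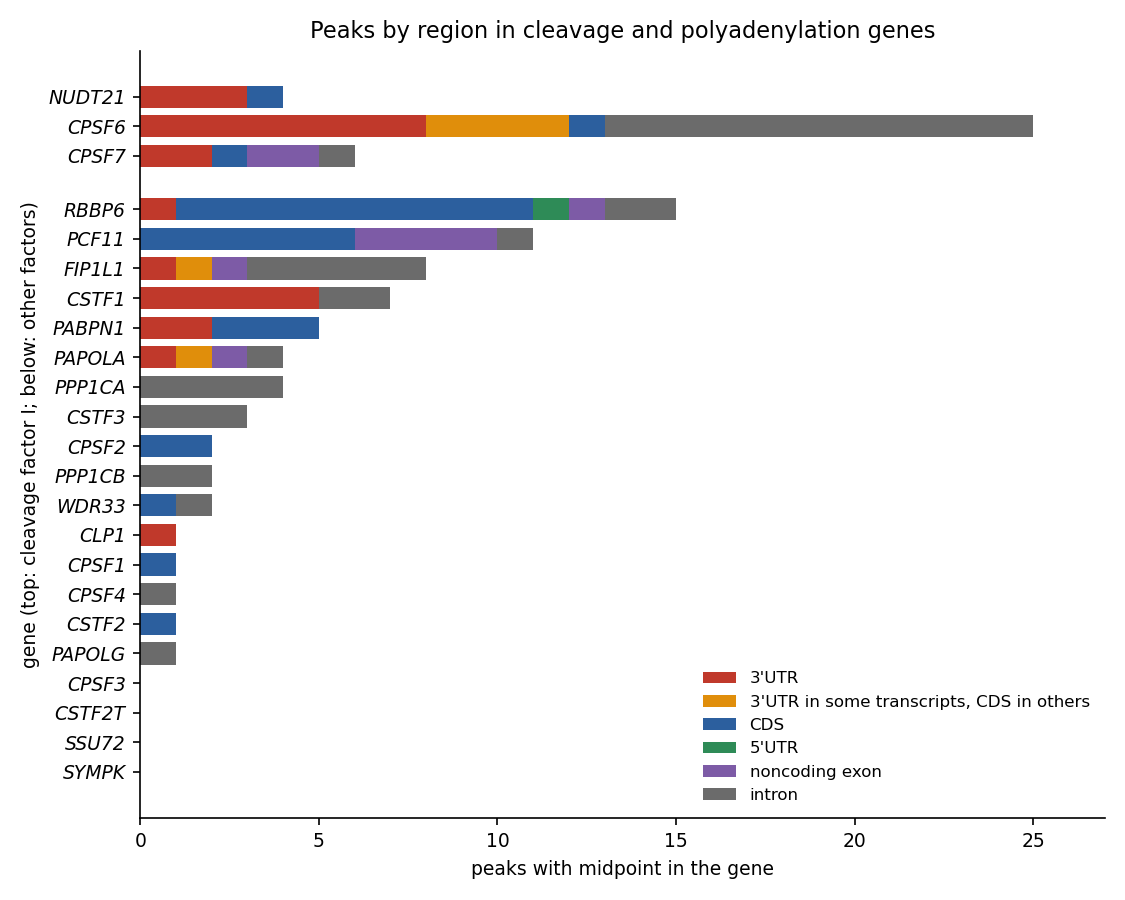
Peaks by region (horizontal axis, stacked counts) in NUDT21, CPSF6 and CPSF7 at the top and in 20 other cleavage and polyadenylation genes below, in order of their peak count. CPSF6 has 25 peaks, 12 of them in introns, and RBBP6 has 15.

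By their counts in the 5 regions, the genes most like CPSF6 were KMT2E and SRSF11, each at a summed difference of 7 peaks, and SRPK2 at 8. KMT2E had 12 3'UTR and 7 intron peaks, SRSF11 had 11 and 8, and SRPK2 had 9 and 8. For CPSF7, 5 genes tied at a difference of 1, among them NASP, RANBP2 and SRGAP3. For NUDT21, 14 genes tied with the same counts, too many to name.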

How the data were processed

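Peaks of 1 NUDT21 antibody library were analysed, and the input library was not analysed here. The authors trimmed reads with fastp, removed duplicates by unique molecular identifier and ribosomal RNA reads, mapped the rest to hg38 and called peaks with MACS2. Which aligner was used, and if the input library was the control for MACS2, is not given in the sources used here. Fold enrichment, as deposited, is the ratio of pileup plus 1 to local background plus 1. The deposited Score is a pileup signal in steps of 0.228, about 4.39 antibody reads per unit if 1 step is 1 read. The deposited p-value and FDR (a q-value) were used as given, and the deposited peak length equalled end minus start plus 1, so coordinates count from 1.

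Regions came from GENCODE 44, by midpoint, with precedence of 3'UTR over 5'UTR, then CDS, then noncoding exon, then intron, and exon numbers from the MANE Select transcript. The stop codon counts as 3'UTR here. The peaks have no strand, and with 1 replicate and unknown depth no test was made. Shares have exact Clopper-Pearson and counts exact Poisson 95% intervals, for counting error only. UGUA was compared with all windows of the same length in the gene body, or in the same part of the gene. It was also compared with all 3'UTR peaks and with those of like length, within 10 nt.

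For each member, every 3'UTR peak and the highest peak of every other region were to be named. Of the other factor genes, the 3 with most 3'UTR peaks and those without a peak were to be named, and up to 3 genes most like each member in region counts. Several genes tied for the last of these places, and further peaks, RBBP6, PCF11, SLC23A1, C19orf44, CDKN1B and HNRNPDL were named after their values were seen. The members and gene lists were chosen with earlier results of these data known. The counting code was tested on simulated data. The analysis used pysam 0.24.0 for sequences, pandas 2.3.3 and numpy 2.4.6 for tables, scipy 1.17.1 for intervals and matplotlib 3.10.9 for plots, under Python 3.11.15. The alternatives tried were a limit on height, fold enrichment or FDR, other rules of assignment, merging, and other windows, motifs and distances.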

Additional observations from a re-analysis of the deposited data

How the results depend on the processing

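Of 61 alternative values, 47 stayed close to the main ones and 14 moved, in that a count changed by over 1.5 times or a share left its interval. With an FDR under 0.05, each count of peaks or 3'UTR peaks in NUDT21, CPSF6 and CPSF7, the count in the last intron of CPSF6 and the count of other factor genes with a 3'UTR peak became 0. With peaks of 5 or more steps, CPSF7 had 3 peaks in place of 6. Its 3'UTR count of 2 became 4 by any overlap with a 3'UTR and 1 with peaks within 100 nt merged. The share of member peaks with UGUA became 77.1% with peaks extended by 50 nt, 37.1% for UGUAA or UGUAU and 40% on the opposite strand. With CDS in precedence or 1 transcript per gene, CPSF6 had 8 3'UTR peaks in place of 12. Limits on the last intron of CPSF6, chosen after seeing the data, gave 9 or 10 peaks, the FDR limit apart. No paired analysis was possible because only 1 library had values. With 1 replicate, whether these peaks would recur is unknown.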
